A study of Mus musculus with 4 samples.

Results

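AMPA receptor subunits and plasma membrane glutamate transporters form a set of 9 genes, all measured among 19938 named genes. They are Gria1, Gria2, Gria3 and Gria4, which encode the subunits of AMPA receptors, and Slc1a1, Slc1a2, Slc1a3, Slc1a6 and Slc1a7, which encode the excitatory amino acid transporters. Each gene was represented by the 1 probe set that carries its symbol. The set was proposed because Gria1 and Slc1a3 had low values in this same comparison. The differences of all 9 genes are therefore given as a description, and nothing is read from counts of them past a threshold.

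RNA came from NIH3T3, an established mouse fibroblast line, as 1 stable clone that carried pBI-EGFP-FLAG-mCtcfl and pTA-N in both groups. In this Tet-Off system doxycycline is meant to hold the FLAG-tagged mouse Ctcfl transgene off. The medium of the 2 control samples held doxycycline at 2 µg/ml, and that of the 2 Ctcfl samples had lacked the drug for 48 h, so loss of doxycycline and expression of Ctcfl cannot be told apart. Each sample was hybridised to 1 Affymetrix array and is given as an RMA value on the log2 scale, where a difference of 1 is a doubling. Whether the replicates came from separate cultures is not stated, so the errors cannot be read as a spread between cultures. The standard errors (SE) are from limma, which draws each gene's variance between arrays toward a value common to all genes. In the fit over all genes the common value had more weight (4.21 degrees of freedom) than the gene's own arrays (2). An SE is therefore not the spread of that gene alone, and the number of arrays limits the precision.

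AMPA receptors are glutamate-gated cation channels that carry most fast excitatory transmission in the brain, and their subunit makeup sets conductance and calcium entry. Glutamate transporters of the SLC1 family move glutamate into cells against its gradient, driven by the sodium gradient. In the brain SLC1A3 (GLAST) and SLC1A2 (GLT-1) of astrocytes clear released glutamate, and in other cells such carriers supply glutamate and aspartate to metabolism.

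The arrays carried the labelled change. Ctcfl, the testis-expressed paralog of CTCF, had values of 7.77 and 7.71 in the control arrays and 10.37 and 10.35 in the Ctcfl arrays, a log2 difference of 2.62 (SE 0.08, limma adjusted p = 5.38e-04 over all genes). Its adjusted p was 0.066 in a fit over all probe sets, 0.424 with ordinary t statistics, 0.071 with the replicate number as a block, and between 0.539 and 0.649 when any 1 array was left out. The median value of an array was 5.20 to 5.24. On each array, the controls included, at least 77.9% of probe sets read lower than Ctcfl. The source of the Ctcfl signal in the controls was not tested. Of 10 fibroblast markers, 9 lay above the upper quartile of all 4 arrays, while Fap, with 3.30 to 3.48, lay low on each. Defining markers of brain cells lay at or below about the middle of the arrays, except Gja1 and Cspg4, which other cells also express. Gfap had 4.59 to 4.75 and Aqp4 had 4.07 to 4.26, and no marker of the neuronal list reached the upper quartile.

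Slc1a3, the glial glutamate and aspartate transporter GLAST, was the member with the largest difference. Its values were 9.16 and 9.23 in the control arrays and 8.42 and 8.31 in the Ctcfl arrays. Both Ctcfl arrays lay clearly below both controls, and the gap between the groups was several times the gap within either. The log2 difference was -0.83 (SE 0.09), a 1.78-fold lower level. On every array at least 83.5% of all probe sets had lower values, so this probe set read well above the dim end. Only 10 genes had a more negative difference. The nearest measured genes on either side of Slc1a3 on the chromosome, chosen after their values were seen, were Nipbl and Ranbp3l. Nipbl, which encodes a loader of cohesin, had a small difference of 0.07. Ranbp3l had 0.13, but its values of 3.57 to 4.01 lay at the dim end, where little can be said of a transcript.

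The region before the annotated start of Slc1a3 is shown because CTCF and CTCFL bind related DNA motifs, and that of Slc1a2 is shown for contrast, since Slc1a2 had the largest difference in the other direction. The sequences are from RefSeq (GRCm38.p6), 250 bases before each start, read 5′ to 3′ on the strand of the gene. They lie at chr15:8710808-8711057 on the minus strand for Slc1a3 and at chr2:102706188-102706437 on the plus strand for Slc1a2. Capitals mark matches on either strand to AGNNGGC, a short stretch within the CTCF core motif.
Slc1a3: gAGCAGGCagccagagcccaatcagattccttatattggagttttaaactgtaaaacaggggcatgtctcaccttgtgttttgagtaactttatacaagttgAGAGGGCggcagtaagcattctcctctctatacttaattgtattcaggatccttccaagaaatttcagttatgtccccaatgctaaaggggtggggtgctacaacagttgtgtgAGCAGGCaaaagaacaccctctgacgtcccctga
Slc1a2: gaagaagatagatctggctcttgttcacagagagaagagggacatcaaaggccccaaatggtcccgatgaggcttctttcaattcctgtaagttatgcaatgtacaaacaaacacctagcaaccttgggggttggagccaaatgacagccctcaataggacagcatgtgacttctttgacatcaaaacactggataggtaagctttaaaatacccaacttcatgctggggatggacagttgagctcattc

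With the 50 bases after the start included, the Slc1a3 window held 3 matches and the Slc1a2 window 0. Among 32851 windows of the same length, 59.8% held at least 1 match and 10.7% held 3 or more. RefSeq windows were matched for 7 of the 9 genes, and 4 of the 7 held a match. Slc1a6 also held 3 matches, although its values in the arrays overlapped between the groups. The Slc1a3 and Slc1a2 windows were alike in base composition, with 45.3% and 45.7% G and C and with 3 and 1 CpG sites, against medians of 52.7% and 7 over all windows. The windows of Slc1a1 (70.3% G and C, 32 CpG sites) and Slc1a6 (75.7%, 32 CpG sites) lay at the other end. A match to so short a stretch is a description of the letters and not of a binding site.

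**Figure D1:**
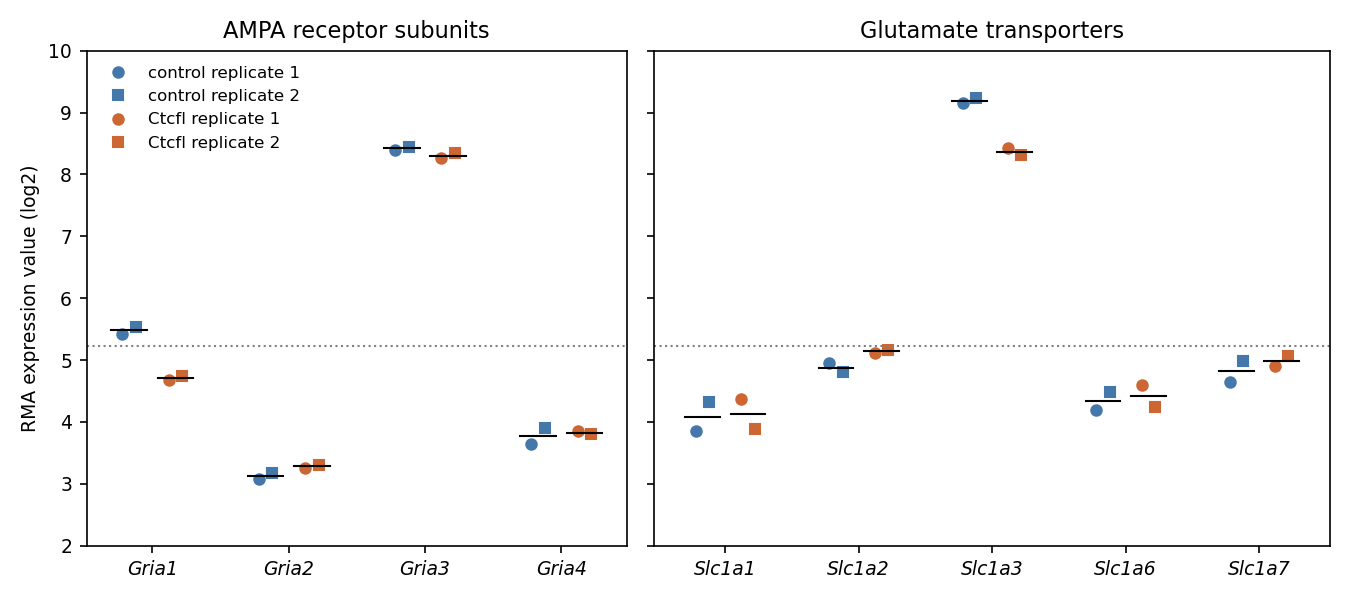
RMA values (log2, y axis) of the 4 AMPA receptor subunit genes and the 5 glutamate transporter genes on each array; circles and squares are replicates 1 and 2, black bars are group means and the dotted line is the middle of the array medians. Gria1 and Slc1a3 have both Ctcfl arrays below both controls by more than 0.6, while the other 7 genes stay within a range of 0.52 over all 4 arrays.

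Gria1, which encodes the AMPA receptor subunit GluA1, was the other member with a large difference. Its values were 5.42 and 5.54 in the control arrays and 4.67 and 4.75 in the Ctcfl arrays. The groups did not overlap, and the replicates of each group differed little from each other. The log2 difference was -0.77 (SE 0.09), or 1.71-fold lower. Its probe set read near the middle of the arrays, with 53.1% and 54.8% of probe sets below it on the control arrays and 38.2% and 40.3% on the Ctcfl arrays. No detection calls were used, so how far the lower values stand above background is not known. The measured genes next to Gria1, chosen after their values were seen, were Nmur2, a neuromedin receptor gene (-0.16), and Fam114a2 (0.11). Nmur2 had values of 3.97 to 4.25, near the lower quartile of the arrays (4.09 to 4.12), so little can be said of it.

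Gria3, which encodes GluA3, had 8.40 and 8.45 in the control arrays and 8.26 and 8.34 in the Ctcfl arrays. The Ctcfl arrays were the lower ones here too, but by a log2 difference of only -0.13 (SE 0.09), with a 95% interval from -0.33 to 0.08. Of the 4 subunit genes it alone read in the upper quartile of every array, with at least 83.1% of probe sets below it. Slc1a3 read in a similar part of the arrays and had the larger difference.

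Gria2 encodes GluA2, the subunit whose RNA-edited form keeps AMPA receptors nearly impermeable to calcium. It had 3.08 and 3.17 in the control arrays and 3.26 and 3.31 in the Ctcfl arrays. The Ctcfl arrays were slightly the higher ones (log2 difference 0.16, SE 0.09), but at most 8.64% of probe sets read lower than Gria2 on any array. Gria4, which encodes GluA4, had 3.64 and 3.91 in the control arrays and 3.85 and 3.80 in the Ctcfl arrays. Its groups overlapped, with a log2 difference of 0.05 (SE 0.11). Both genes thus read at the dim end, where little can be said of their transcripts.

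Slc1a2, which encodes GLT-1, had 4.95 and 4.80 in the control arrays and 5.11 and 5.17 in the Ctcfl arrays. Both Ctcfl arrays were above both controls, opposite to Slc1a3. The log2 difference was 0.27 (SE 0.09), or 1.20-fold. Its probe set read just below the middle of each array, with 41.6% to 49.0% of probe sets below it.

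The remaining transporters overlapped between the groups. Slc1a1, which encodes EAAC1, the carrier found in neurons, kidney and gut, had 3.85 and 4.32 in the control arrays and 4.37 and 3.89 in the Ctcfl arrays. Each group held a high and a low array, so the group means of 4.09 ± 0.33 and 4.13 ± 0.34 (SD, n = 2 each) were almost equal. Its spread between replicates was larger than that of 99.3% of genes, and the 95% interval of its difference, -0.46 to 0.55, was the widest of the 9 genes.

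Slc1a6, the transporter gene of cerebellar Purkinje cells, had 4.20 and 4.49 in the control arrays and 4.59 and 4.24 in the Ctcfl arrays. As with Slc1a1, control replicate 2 and Ctcfl replicate 1 were the high arrays. The log2 difference was 0.07 (SE 0.15). Slc1a7, a transporter gene known from the retina, had 4.65 and 4.99 in the control arrays and 4.91 and 5.06 in the Ctcfl arrays, with a log2 difference of 0.17 (SE 0.13). Leaving out control replicate 1 brought that difference to -0.01 and turned Gria4, Slc1a1 and Slc1a6 to negative values. Without Ctcfl replicate 1, Slc1a1 and Slc1a6 also had negative values. The differences of these 4 genes therefore had no settled direction.

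**Figure D2:**
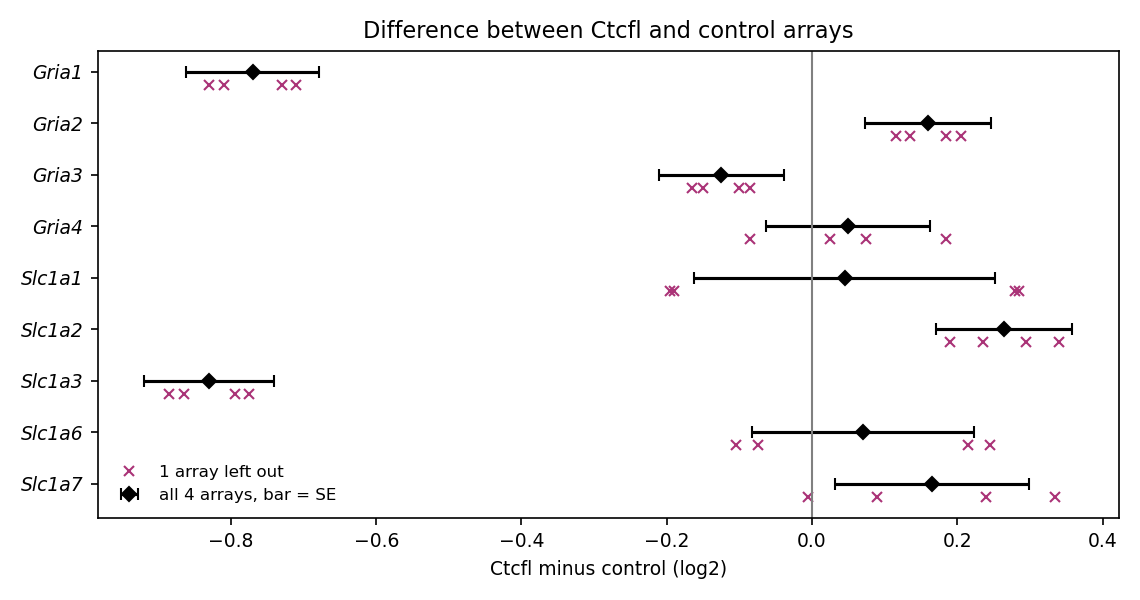
Log2 difference between Ctcfl and control arrays (x axis) for each of the 9 genes; diamonds with bars are the difference over all 4 arrays with its standard error from limma, and crosses are the differences with 1 array left out. The crosses of Gria1 run from -0.83 to -0.71 and those of Slc1a3 from -0.89 to -0.78, while those of Gria4, Slc1a1, Slc1a6 and Slc1a7 fall on both sides of 0.

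Among the 9 genes, 5 had groups that did not overlap, 3 lower (Gria1, Gria3 and Slc1a3) and 2 higher (Gria2 and Slc1a2), where 41.1% of all genes had such groups, 20.6% in each direction. The median log2 difference was 0.05 over the 9 genes, against 0.00 over all genes. Counted by limma at an adjusted p of 0.05, 0 of the 9 passed, and 3 of 9 had an unadjusted p under 0.05, against 0.0451% (0.0150% lower) and 10.7% of all genes. When variances were fitted with an intensity trend and robustly, Gria1 and Slc1a3 passed as lower, where 2.40% of all genes passed and 1.30% were lower. Without the dimmest 33.3% of genes Slc1a3 alone of the 5 members that remained passed, where 0.150% of the genes kept did. As the genes were chosen on this comparison, nothing is read from these counts.

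The genes whose pattern over the 4 arrays lay nearest to Gria1 and Slc1a3 were found by the Euclidean distance between values centred on each gene's mean. Nearest to Gria1 were Osmr, a subunit gene of the oncostatin M receptor (distance 0.043, log2 difference -0.78), Gpr149, an orphan receptor gene (0.11, difference -0.67), and Spon2, which encodes a secreted matrix protein (0.13, difference -0.66). Nearest to Slc1a3 were Cytip, which encodes a cytohesin-binding protein (distance 0.073, log2 difference -0.88), P2rx3, an ATP-gated channel gene (0.11, difference -0.87), and Igfbp4, a binding protein of insulin-like growth factors (0.12, difference -0.95). The difference of P2rx3 was -0.20 in its other, dimmer probe set and -0.53 in the mean of both. Among all 19937 other genes Slc1a3 was number 4 by distance from Gria1 and Gria1 was number 5 from Slc1a3, at 0.15. With 4 arrays such likeness mostly restates the size of the difference.

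**Figure D3:**
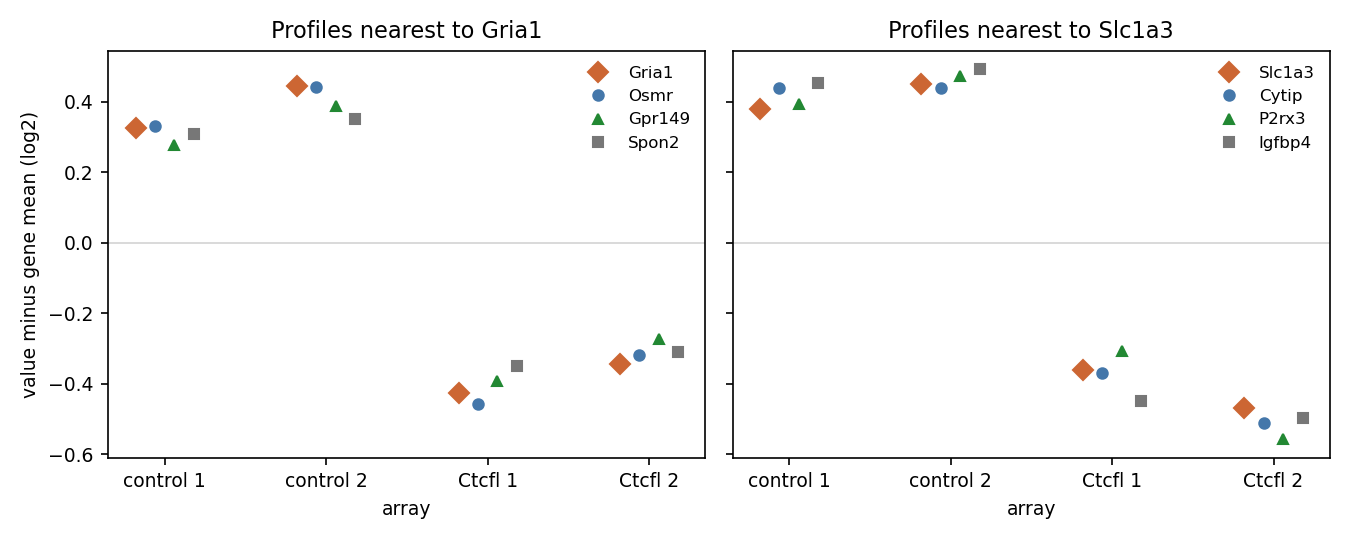
Log2 values minus each gene's own mean (y axis) on each of the 4 arrays (x axis) for Gria1 and Slc1a3 (diamonds) and the 3 genes with the nearest pattern to each. All 8 genes lie above 0 on both control arrays and below 0 on both Ctcfl arrays.

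Of the other glutamate-related genes, 78 were measured in 6 lists, and 0 passed in the limma fit over all genes (12 at an unadjusted p under 0.05, or 15.4%, against 10.7% of all genes). The median difference was 0.02, with 34 genes lower and 42 higher. At an unadjusted limma p under 0.05, 7 were higher and 5 lower. With median centring 2 were higher and 8 lower, where 2242 of all 19938 genes had such a p in either direction. These lists share no gene with the 9 above. In the alternative with trended and robust variances, 4 of them were lower past the threshold (Grik2, Gpt2, Slc1a5 and Slc38a1) and 1 was higher (Oat, whose value rested largely on Ctcfl replicate 2), where 2.40% of all genes passed.

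AMPA receptors work with auxiliary proteins that traffic and anchor them. Of 25 such genes 0 passed, and 4 were higher and 0 lower at an unadjusted p under 0.05, where 5.36% and 5.32% of all genes were. The median difference was 0.08. Cacng3, which encodes a transmembrane AMPA receptor regulatory protein, had 3.59 and 3.74 in the control arrays and 3.96 and 4.10 in the Ctcfl arrays (log2 difference 0.37, SE 0.10, limma adjusted p = 0.348). Cnih3, a cornichon gene, had 0.26 (SE 0.10, and 0.16 without Ctcfl replicate 2), and Shisa6 had 0.21 (SE 0.08). The count of higher genes depended on the processing. With median centring the unadjusted limma p was 0.0631 for Cnih3 and 0.078 for Shisa6, and with trended and robust variances 0.0783 and 0.145. Cacng3, Cnih3 and Shisa6 read below the median of every array. Pick1, the remaining gene of the 4, had 6.40 and 6.32 in the control arrays and 6.60 and 6.54 in the Ctcfl arrays. Its log2 difference was 0.21 (SE 0.09), and at least 63.7% of probe sets read lower on each array.

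Other glutamate-gated channels were mostly near 0. Of 12 NMDA, kainate and delta receptor genes 0 passed, with a median of -0.02. At an unadjusted p under 0.05 there was 1 lower gene, where 5.32% of all genes were lower. Grik2, which encodes the kainate receptor subunit GluK2, had the largest difference of this list. It had 7.64 and 7.70 in the control arrays and 7.14 and 7.01 in the Ctcfl arrays. Both Ctcfl arrays were lower, by a log2 difference of -0.60 (SE 0.09, limma adjusted p = 0.157), with at least 70.7% of probe sets reading lower on each array. The NMDA receptor genes Grin2a and Grin2d had -0.26 (SE 0.12) and -0.16 (SE 0.12), values that depended on single Ctcfl arrays. Without Ctcfl replicate 1 they were -0.40 and -0.015, and without Ctcfl replicate 2 they were -0.12 and -0.305. At most 18.5% of probe sets read lower than Grin2a on any array. Of 7 metabotropic receptor genes 0 passed, with a median of 0.11, and 2 were higher at an unadjusted p under 0.05, where 5.36% of all genes were. Grm2 had 0.34 (SE 0.10), Grm5 had 0.24 (SE 0.09) and Grm6 had -0.24 (SE 0.10, and -0.13 without control replicate 2). Grm5 and Grm6 read below the median of every array.

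Among other carriers of glutamate, glutamine, cystine and neutral amino acids, 0 of 15 passed. At an unadjusted p under 0.05, 3 were lower and 0 higher, where 5.32% and 5.36% of all genes were. The median was -0.07. Slc1a5, the glutamine carrier ASCT2 of the same SLC1 family, had 9.37 and 9.28 in the control arrays and 9.04 and 8.91 in the Ctcfl arrays. Its groups did not overlap, with a log2 difference of -0.35 (SE 0.09, limma adjusted p = 0.347). Slc7a11, which encodes the cystine and glutamate exchanger xCT, had -0.46 (SE 0.09). Its values were 4.81 and 4.92 in the control arrays and 4.45 and 4.36 in the Ctcfl arrays, below the median of every array. Slc38a1, a sodium-coupled glutamine carrier gene, had -0.25 (SE 0.08). In the mean of its 2 probe sets Slc38a1 had -0.22, with an unadjusted limma p of 0.0571. Slc1a4, the remaining SLC1 gene, which encodes the neutral amino acid carrier ASCT1, had -0.16 (SE 0.09).

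Genes of glutamate and glutamine metabolism had differences in both directions. Of 15 measured, 0 passed, with a median of -0.05. At an unadjusted p under 0.05, 1 was lower and 1 higher, where 5.32% and 5.36% of all genes were. The alanine transaminase gene Gpt2 had 8.05 ± 0.07 in the control arrays and 7.47 ± 0.01 in the Ctcfl arrays (SD, n = 2 each). That is a log2 difference of -0.58 (SE 0.09, limma adjusted p = 0.152) with groups that did not overlap. Oat, the ornithine aminotransferase gene, had 9.37 and 9.36 in the control arrays and 9.54 and 9.86 in the Ctcfl arrays. Its log2 difference of 0.34 (SE 0.12) was 0.175 without Ctcfl replicate 2 and 0.495 without Ctcfl replicate 1. Aldh18a1, which makes the proline precursor from glutamate, had -0.18 (SE 0.09). Glud1, the glutamate dehydrogenase gene, had 0.04. The sodium pump maintains the gradient that drives the transporters. Of its 4 measured subunit genes 0 passed and 0 had an unadjusted p under 0.05, against 10.7% of all genes. Atp1b2 (0.13), Atp1b1 (0.08) and Atp1a4 (0.06) all had groups that overlapped.

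**Figure D4:**
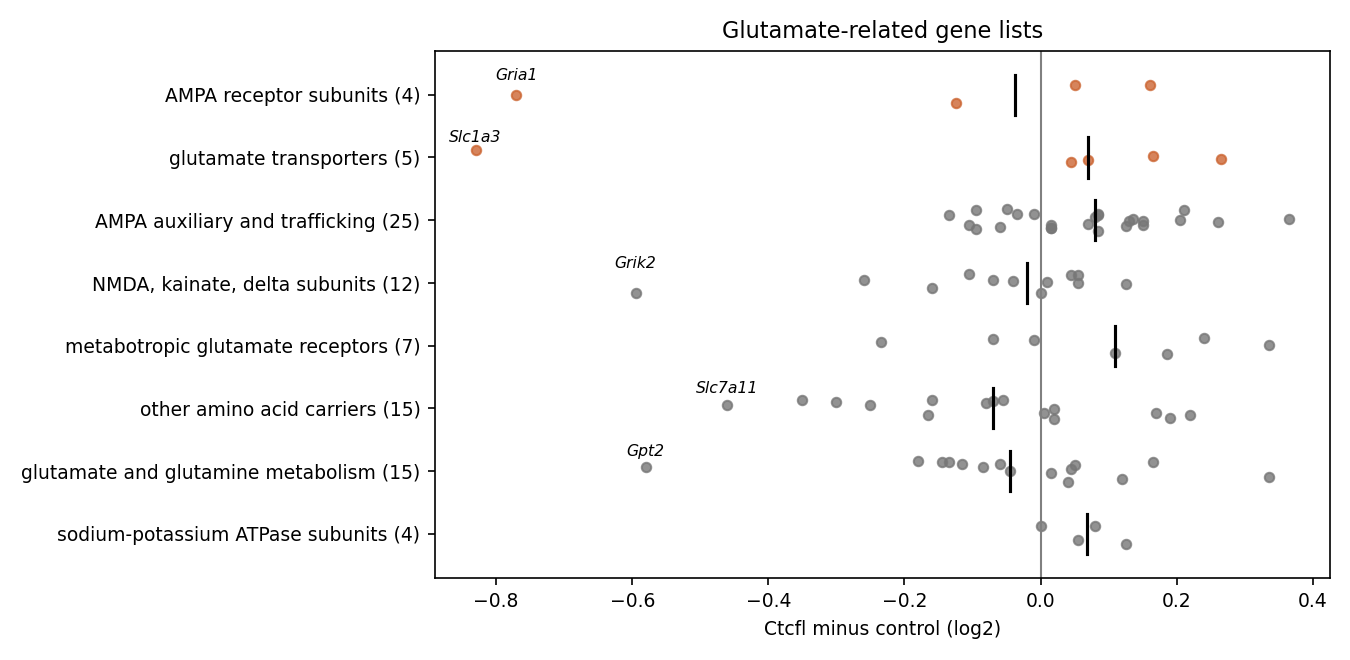
Log2 difference between Ctcfl and control arrays (x axis) for each gene of the AMPA receptor subunits, the glutamate transporters (both orange) and the 6 other lists (grey), with the number of measured genes in brackets and the median as a black bar. Genes with a difference of at least 0.45 in size are named; the medians lie between -0.07 and 0.11.

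The summed levels of several marker lists separated the groups, as did the values of 41.1% of all single genes. The part of the marker sums in the differences of Gria1 and Slc1a3 was not tested. The log2 values of the 10 fibroblast markers summed to 95.3 in both control arrays and to 93.4 and 93.8 in the Ctcfl arrays. Of the 10 markers 8 were lower, among them Pdgfrb (-0.56) and Col3a1 (-0.38), where 48.6% of all genes were lower. The 7 astrocyte markers summed to 38.6 to 38.9 in the control and 38.1 in both Ctcfl arrays, with Gja1, a gap junction gene that fibroblasts also express, at -0.22. The 8 neuronal markers (36.6 to 37.5 against 36.6 to 36.7) and the 5 macrophage markers (23.8 to 24.1 against 23.8 to 23.9) overlapped. The 5 epithelial markers summed to 24.1 to 24.2 against 24.6. That gap rested on Krt8 (0.58), since Krt19 (-0.19) and Epcam (-0.04) had lower values and the sums without Krt8 overlapped (18.1 and 18.5 against 18.2 in both). The 5 markers of the oligodendrocyte lineage summed to 27.5 against 27.6 to 27.7, and without Sox10, the one with the largest difference, their sums overlapped too (22.1 and 22.3 against 22.3 and 22.2). The fibroblast and astrocyte sums stayed apart without Pdgfrb and without Gja1. As all RNA came from 1 clone of a fibroblast line, the sums describe marker levels in whole cultures and not shares of cell types. Fewer cells with a given RNA and less of that RNA per cell cannot be told apart.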

How the data were processed

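The deposited log2 values are RMA values, which the authors obtained from Expression Console per the labels; no version or settings were given in the sources used here. Of 35512 probe sets 1 had no value. The platform annotation gave 1 gene symbol to 21789 probe sets, several to 1621 and none to 12101, and 21698 symbols matched RefSeq (GRCm38.p6) by gene identifier, with 0 changed. The probe set with the highest mean stood for each of 19938 genes. Groups were compared by limma 3.58.1 (lmFit, eBayes, two-sided; R 4.3.3), and p-values were adjusted by Benjamini-Hochberg over all genes, with 0.05 as the threshold. The test was tried on simulated data first. Alternatives were quantile normalization, median centring, dim genes left out, averaged probe sets, a fit of all probe sets, trended and robust variances (statmod 1.5.0), ordinary t statistics, a replicate block and each array left out. The members and lists were chosen with earlier results of these data known. Named were the members, Ctcfl, the 3 genes of each list with the smallest unadjusted p (up to 4 where any passed) and the 3 nearest profiles of Gria1 and Slc1a3. Other list genes, markers and neighbours with printed values were picked after these were seen. Figures used matplotlib 3.10.9.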

Additional observations from a re-analysis of the deposited data

How the results depend on the processing

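Gria1, Gria2, Gria3, Slc1a2 and Slc1a3 kept the sign of their log2 difference under every alternative that was run. The groups of these genes did not overlap, so leaving out an array could not turn the sign. Alternatives that change only the variances keep the difference itself. The kept sign therefore adds no support. With 1 array left out the differences ran from -0.83 to -0.71 for Gria1, from 0.12 to 0.21 for Gria2, from -0.17 to -0.09 for Gria3, from 0.19 to 0.34 for Slc1a2 and from -0.89 to -0.78 for Slc1a3. The other 4 genes changed sign, with ranges of -0.085 to 0.185 for Gria4, -0.20 to 0.29 for Slc1a1, -0.11 to 0.25 for Slc1a6 and -0.005 to 0.335 for Slc1a7, and so did Atp1b2 (-0.04 to 0.29), Atp1b1 (-0.18 to 0.34) and Atp1a4 (-0.11 to 0.22). The cause of these turns was not tested. Gria2, Gria4, Slc1a1 and Slc1a6 were among the dimmest 33.3% of genes, so they have no value without those.

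The number of the 9 genes past the threshold was 0 over all arrays and 1 without the dimmest 33.3% of genes (Slc1a3, -0.83). It was 2 when variances were trended and robust (Gria1, -0.77, and Slc1a3, -0.83). As the genes were chosen on this comparison, nothing is read from these numbers. Where the fit over all genes had 0 and 0 list genes past the threshold, 4 were lower and 1 higher in the trended and robust fit. That fit called 479 genes in all, against 9, with 20 called without the dimmest genes and 0 in the fit over all probe sets (1327 unadjusted), with ordinary t statistics (1940) and with any array left out (1329 to 1663). The labels do not say whether equal replicate numbers mark paired arrays. The deviations of replicate 1 from its group mean correlated at -0.10 between the groups, which cannot settle that. With the replicate block, 0 of the 9 genes and 0 of all genes passed (1468 unadjusted). The crossed pairing, chosen after seeing the data, also called 0 genes (2105 unadjusted). Signal over background was not known, which limits Gria2, Gria4, Slc1a1 and Slc1a6 most.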
